A study of Mus musculus with 4 samples.

Results

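The 8 genes described here, Tsc22d3, Fkbp5, Klf9, Sgk1, Cebpd, Nr3c1, Hsd11b1 and Zbtb16, belong to the cellular response to glucocorticoids, the steroid hormones released under stress. They were chosen by symbol among the 31053 genes of the count matrices, and all 8 were found. Their transcripts were followed in single cells of mouse bone, by cell type and in each library apart, as a sign of stress hormone in mice suspended by the tail. Single-cell RNA sequencing (10x Genomics 3′ kit) had been run on tibiae and femurs that were flushed of marrow and digested with enzymes. At mm10 (GRCm38) the genes lie at chrX:140539528-140600659 (Tsc22d3), chr17:28399094-28517527 (Fkbp5), chr19:23141226-23168134 (Klf9), chr10:21882184-21999903 (Sgk1), chr16:15887286-15891031 (Cebpd), chr1:193221634-193264075 (Hsd11b1) and chr9:48654297-48836222 (Zbtb16). The Ctrl group held 2 wild-type C57BL/6J mice that were not suspended. The HLU (hindlimb unloading) group held 2 wild-type C57BL/6J mice suspended by the tail for 28 days. Each mouse gave 1 library. The sources differ on the age of the animals, and neither a steroid nor a hormone level is named in the labels. A suspended mouse differs from a control in load, posture and handling at once, and these cannot be told apart here.

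Corticosterone, the main glucocorticoid of mice, enters cells freely and binds the glucocorticoid receptor encoded by Nr3c1. The receptor then leaves its chaperones, moves to the nucleus and binds DNA at palindromes, or acts on other factors without binding DNA itself. Hsd11b1 encodes the enzyme that regenerates active hormone from its inert form inside the cell. Tsc22d3 (also called Gilz), Fkbp5, Klf9, Sgk1, Cebpd and Zbtb16 are genes that the hormone is known to induce in many tissues. In marrow, glucocorticoids are known to thin out lymphocytes and to release neutrophils into the blood, and in bone they restrain osteoblasts.

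Of all barcodes, 32217 passed the limits of 1000 to 40000 UMIs (unique molecular identifiers, 1 per captured transcript) and at most 10% mitochondrial UMIs, with 7340 and 7635 cells in Ctrl and 7757 and 9485 in HLU. Cell types were assigned by summed marker genes. The 4 libraries held 57925383, 61296053, 47819046 and 99849070 UMIs, the 2 Ctrl libraries by replicate number and then the 2 HLU libraries, an order kept for all series of 4 values. HLU replicate 2 stood apart. It was the deepest and had 267 barcodes under 1000 UMIs where the others had 2143 to 2585. Its mature neutrophils held 443 CPM of monocyte markers against 114 to 203 (CPM are UMIs per 1000000 UMIs of a type in a library). In its immature neutrophils these markers stood at 2955 CPM against 294 to 453, and in its neutrophil progenitors at 6820 against 1247 to 2069. The part of monocyte RNA in the values of these types was not tested. The value of HLU replicate 2 is therefore listed apart in each series. The differences named below are also given without it where that moved a member's fold by over 1.5 times or turned its sign. Cells gated as skeletal (chondrocytes, osteoblasts and mesenchymal stromal cells) numbered 2421 and 2069 in Ctrl but 27 and 84 in HLU. In sums over all cells of a library, fewer cells of a type and less RNA per cell cannot be told apart, and the 4 sums of Klf9 over all cells (134, 104, 12.8 and 15.3 CPM) differ with these cell numbers. All tests were therefore made within a type, and only types with at least 30 cells in every library were tested. Any 2 libraries shared 13 to 21 cell barcodes.

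The receptor is known to bind the palindrome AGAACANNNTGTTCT. This sequence was searched on both strands of 32851 RefSeq promoters of GRCm38.p6, each with 250 bases before and 50 after a start site. Only 3 promoters (0.00913%) held it, and among the 12 promoters found for 5 members it stood in 1, that of a Sgk1 transcript at chr10:21993640-21993939 on the plus strand. Of these 12 promoters 6 were of Sgk1, 3 of Tsc22d3 and 1 each of Fkbp5, Hsd11b1 and Klf9, so they are not 12 separate genes. The shorter core of the palindrome, ACANNNTGT, stood in 2 of the 12, both of Sgk1, against 6.85% of all promoters. The single arm AGAACA, which is part of the full palindrome, stood in 4 of the 12, 3 of Sgk1 and 1 of Tsc22d3, against 19.0%. The Tsc22d3 promoter lies at chrX:140600473-140600772 on the minus strand. Both are shown because the levels of these 2 genes separate HLU replicate 2 from the other libraries. Capitals mark the palindrome in Sgk1, from position -189 from the start site, and the arm on the opposite strand in Tsc22d3, from position -185. A further arm on the opposite strand (tgttct), near the first base of the Sgk1 window, is left in lower case. A match of letters is a description of these windows and no evidence of binding.
Sgk1: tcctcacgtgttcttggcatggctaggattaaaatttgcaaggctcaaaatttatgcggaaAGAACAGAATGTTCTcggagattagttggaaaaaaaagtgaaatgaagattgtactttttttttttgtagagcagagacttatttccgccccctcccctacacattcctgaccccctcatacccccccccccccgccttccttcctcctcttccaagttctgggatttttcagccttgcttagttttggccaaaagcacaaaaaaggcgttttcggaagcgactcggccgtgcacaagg
Tsc22d3: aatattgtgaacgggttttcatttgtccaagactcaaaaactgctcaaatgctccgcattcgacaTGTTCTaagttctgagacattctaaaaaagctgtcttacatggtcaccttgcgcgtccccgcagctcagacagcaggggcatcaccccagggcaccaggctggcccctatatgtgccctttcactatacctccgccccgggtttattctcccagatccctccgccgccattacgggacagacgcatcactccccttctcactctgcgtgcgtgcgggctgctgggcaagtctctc

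**Figure D1:**
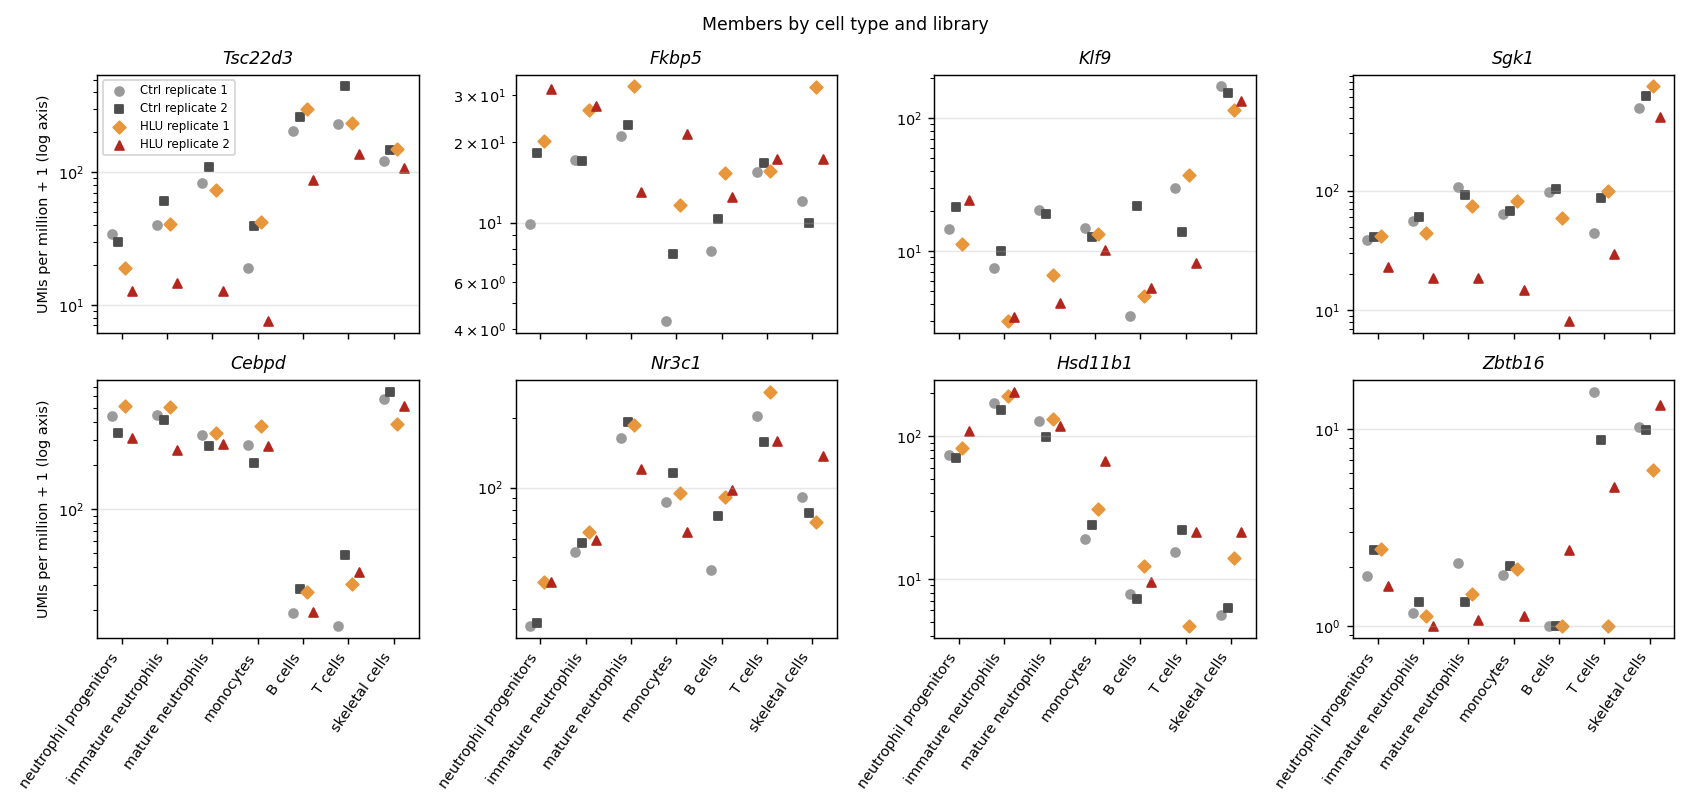
CPM plus 1 (log axis) of the 8 members in 6 marrow cell types and the skeletal cells, with 1 point per library (light grey circles and dark grey squares, Ctrl replicates 1 and 2; orange diamonds, HLU replicate 1; red triangles, HLU replicate 2). Tsc22d3 and Sgk1 lay lowest in HLU replicate 2 in each of the 6 marrow types (the share of all genes doing so was not counted). Klf9 and Sgk1 were highest in skeletal cells, and the skeletal value of HLU replicate 1 rests on 27 cells.

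Nr3c1, the receptor itself, was found in every type tested. In mature neutrophils it stood at 163, 190.1, 185 and 119.7 CPM, and in immature neutrophils at 51.7, 56.4, 62.9 and 58.5 CPM. All 4 libraries were higher in the mature than in the immature cells. The difference was 1.60 ± 0.13 (log2 fold change ± SE; adjusted p = 2.92e-06, edgeR's quasi-likelihood test with Benjamini-Hochberg adjustment over all genes, as for every adjusted p below). Monocytes were below mature neutrophils (-1.81 ± 0.15, log2; adjusted p = 0.000141), as were B cells (-2.39 ± 0.21; adjusted p = 1.12e-05). T cells, with 203, 157, 259 and 158 CPM, had the highest mean of the types. Their mean of 194 ± 48.3 CPM and that of mature neutrophils, 164 ± 32.1 CPM (SD, n = 4), lay within 1 SD of each other. Neutrophil progenitors had the lowest mean of the types, 31.3 ± 7.89 CPM.

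Hsd11b1, the enzyme that regenerates active hormone, was mainly a transcript of the neutrophil lineage. Its level was 170.1, 151, 189.5 and 205 CPM in immature neutrophils and 126, 98.4, 130.2 and 116 CPM in mature ones. Each library was lower in the mature cells, with a log2 fold change of -0.50 ± 0.13 (adjusted p = 0.00801). B cells held 6.22 to 11.2 CPM, below mature neutrophils (log2 fold change -5.03 ± 0.24, adjusted p = 8.81e-07), and skeletal cells of Ctrl held 4.56 and 5.27 CPM. Monocytes lay between, at 18.1, 23.0, 29.8 and 65.8 CPM, also below mature neutrophils (log2 fold change -2.82 ± 0.26, adjusted p = 0.000196). The highest of these 4, HLU replicate 2, also held 9138 CPM of the neutrophil transcript S100a8 in its monocytes, against 2523 to 2729 CPM in the others. The part of neutrophil RNA in that value was not tested.

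Tsc22d3 encodes a leucine zipper protein that curbs inflammatory transcription and is among the most regular targets of the receptor. It was highest in lymphocytes, with means of 262 ± 130 CPM in T cells and 212 ± 92.2 CPM in B cells (SD, n = 4). B cells exceeded mature neutrophils by 0.57 ± 0.22 on the log2 scale (adjusted p = 0.0444). That call was lost without HLU replicate 1 (adjusted p = 0.0571). The mean of mature neutrophils was 69.1 ± 41.2 CPM, so the gap was larger in CPM, which carry no TMM normalization factors, than in the fit. Mature neutrophils exceeded immature ones by 0.77 ± 0.15 (adjusted p = 0.00139), and monocytes lay below mature neutrophils (-2.21 ± 0.24, adjusted p = 0.00035). Thinned to 1000 UMIs per cell, 14.5%, 23.4%, 24.2% and 8.74% of B cells had a Tsc22d3 UMI (45.5%, 54.2%, 52.9% and 19.2% unthinned). No type here is known to lack the gene and could give a background. In mature neutrophils the thinned shares were 9.43%, 11.1%, 7.81% and 1.06% (19.6%, 26.7%, 19.5% and 5.04% unthinned). HLU replicate 2 had the lowest share in both types although its mature neutrophils were the deepest (medians of 2347, 2924.5, 2776 and 4363 UMIs per cell).

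Fkbp5 encodes a co-chaperone that lowers the receptor's affinity for its hormone and so closes a feedback loop. It was a low transcript everywhere, with means of 10.3 CPM in monocytes to 21.4 CPM in mature neutrophils among the 6 tested types. B cells lay below mature neutrophils (log2 fold change -2.23 ± 0.24, adjusted p = 3.99e-05), and so did monocytes (-1.97 ± 0.45, adjusted p = 0.0085). The mature and immature neutrophils differed by 0.09 ± 0.20 (log2; adjusted p = 0.724), which became 0.31 without HLU replicate 2 (adjusted p = 0.0379).

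Sgk1, a kinase that acts on ion channels and on transcription factors, and Klf9, a zinc finger repressor that also follows the daily rhythm of the hormone, were high in bone cells. In skeletal cells Sgk1 stood at 492, 609.7, 742 and 408 CPM and Klf9 at 173, 153, 114 and 133 CPM. These levels lay above every tested marrow type in every library. Macrophages, with at least 30 cells in HLU replicate 2 alone, were high as well there, at 725 CPM of Sgk1 and 119 CPM of Klf9. Of those 45 macrophages 22 had a Sgk1 UMI, but only 4 had a Klf9 UMI, so that the Klf9 level was carried by few cells. Among the 6 tested types Sgk1 reached at most 107 CPM and Klf9 at most 36.5 CPM. Mature neutrophils exceeded immature ones by 0.69 ± 0.14 for Sgk1 (log2; adjusted p = 0.00115) and by 1.22 ± 0.20 for Klf9 (adjusted p = 0.000407). The summed skeletal markers were also higher in mature than in immature neutrophils in every library, at 2485, 2256, 92.1 and 19.3 CPM against 1031, 1509, 37.9 and 4.78 CPM. Their part in this contrast was not tested.

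Cebpd, a transcription factor of the granulocyte and acute phase programmes, had 254 to 502 CPM in immature neutrophils, 273 to 335 CPM in mature ones and 509 to 646 CPM in the skeletal cells of the 3 libraries with at least 30 of them. Osteoblasts of Ctrl replicate 1, with 41 cells, held 1735 CPM. B cells held 18.2 to 27.0 CPM, below mature neutrophils (log2 fold change -4.997 ± 0.25, adjusted p = 8.81e-07). Zbtb16 (also called Plzf), a zinc finger factor of innate-like T cells that is also induced in stromal cells, had 9.20 and 8.84 CPM in Ctrl skeletal cells and 0.0802 to 1.08 CPM in mature neutrophils. It passed the filter on low counts in 0 of the 6 types and was not tested.

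These comparisons of types used cells of the same mice. Their log2 fold changes include TMM normalization factors and the CPM do not, so the scales differ. Cebpd was called lower in monocytes than in mature neutrophils (-1.05 ± 0.16, adjusted p = 0.00162, edgeR). Its means there were 281 ± 69.1 and 303 ± 31.3 CPM (SD, n = 4). The share of all genes called was 71.0% for B cells against mature neutrophils, 58.7% for mature against immature neutrophils and 62.2% for monocytes against mature neutrophils. Of the 7 members tested, 7, 5 and 6 were called in these 3 contrasts. Without HLU replicate 2 every call among them kept its direction and its side of the threshold, and 2 more were made in the neutrophil contrast, Fkbp5 and Cebpd.

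Suspension was then compared with control within each of the 6 tested types. Of 36 fits of a member in a type, 1 passed the threshold of an adjusted p of 0.05: Klf9 fell in mature neutrophils. Its 4 values there were 19.5, 17.9, 5.66 and 3.05 CPM, from 72, 108, 62 and 38 UMIs. Both HLU libraries lay below both Ctrl libraries, by a log2 fold change of -1.93 ± 0.34 (adjusted p = 0.0432). The Ctrl mean was 18.7 ± 1.09 CPM and the HLU mean 4.35 ± 1.85 CPM (SD, 2 mice each). Without HLU replicate 2 the value was -1.79. Without HLU replicate 1 it was -2.07. A fit with a lone library in a group assumes that this library varies like the other group, so only its effect size is given here and below. In immature neutrophils Klf9 stood at 6.499, 8.9996, 1.99 and 2.19 CPM. The log2 fold change of -1.92 ± 0.40 did not pass with edgeR (adjusted p = 0.0856) but did with DESeq2, the alternative test (adjusted p = 0.0355). The call in mature neutrophils was lost with the study's further filters on cells (-1.26, adjusted p = 0.324) and with stricter marker gates (-1.59, adjusted p = 0.137). It was also lost in the fits with a lone Ctrl library, though the value hardly moved (-1.89 without Ctrl replicate 1 and -1.98 without Ctrl replicate 2).

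RNA of bone cells moved with the fall of Klf9. The 21 skeletal marker genes summed to 2485, 2256, 92.1 and 19.3 CPM in mature neutrophils, and over the 6 tested types to between 619.7 and 2485 CPM in Ctrl and between 4.78 and 259 CPM in HLU. In the skeletal cells of Ctrl, 3.73 and 2.996 Klf9 UMIs were found per 1000 skeletal marker UMIs. At those ratios the marker RNA in Ctrl mature neutrophils would carry 9.28 and 6.76 CPM of Klf9, and at the HLU ratios 0.353 and 0.0942 CPM. The remainders were 10.2, 11.2, 5.31 and 2.95 CPM, but they rest on the cells used as reference. Ctrl skeletal cells had a mean of 163 CPM of Klf9 beside 46298 and 50989 CPM of skeletal markers. Ctrl cells passing no gate had a mean of 162 CPM beside only 16810 and 11769 CPM. With these as reference more Klf9 would be assigned to the marker RNA, so the order of the remainders depends on that choice. Barcodes under 1000 UMIs held 53.9, 41.6, 6.497 and 5.11 CPM of Klf9. The part of this RNA in the result was not tested. In monocytes Klf9 stood at 14.0, 11.7, 12.5 and 9.16 CPM, and the groups overlapped.

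**Figure D2:**
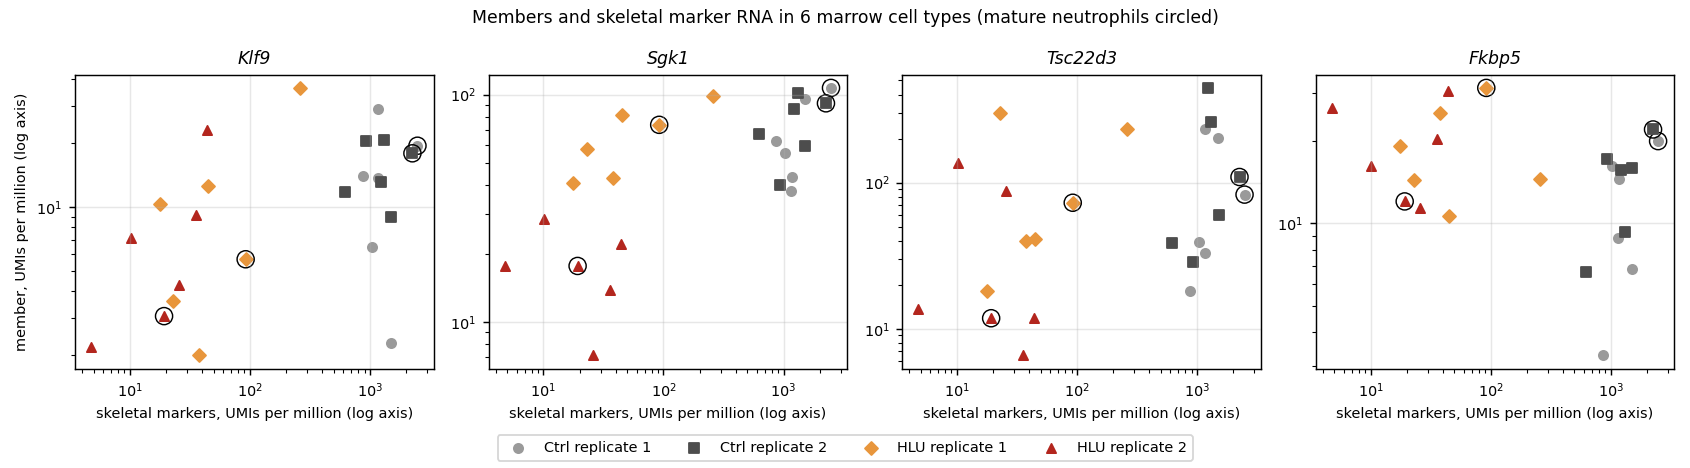
Levels of Klf9, Sgk1, Tsc22d3 and Fkbp5 against the summed skeletal markers, both in CPM on log axes, with 1 point per library in each of the 6 tested types and mature neutrophils circled. The Ctrl points lie between 619.7 and 2485 CPM of skeletal markers and the HLU points between 4.78 and 259 CPM, and for Klf9 both circled HLU points, at 5.66 and 3.05 CPM, lie below both circled Ctrl points.

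Tsc22d3 and Sgk1 were lowest in HLU replicate 2 in each of the 6 types. The share of all genes that were lowest in that library was not counted, so nothing particular to these 2 genes can be read from it. Tsc22d3 in mature neutrophils stood at 82.7, 109, 72.7 and 11.8 CPM. HLU replicate 1 lay just under the lower Ctrl library, and the mean of the other 3 libraries was 7.48 times that of HLU replicate 2. These CPM carry no TMM factors, which were 1.09, 1.07, 1.14 and 0.749 in mature neutrophils. With them the ratio would be smaller. The log2 fold change between the groups was -1.16 ± 0.63 (adjusted p = 0.481). It was -0.48 without HLU replicate 2 and -2.50 without HLU replicate 1. In B cells the values were 202, 259, 299 and 87.0 CPM, and in T cells 232, 444, 234 and 137 CPM. Neither passed (log2 fold changes of -0.39 ± 0.51 and -0.95 ± 0.40, adjusted p = 0.985 and 0.896). In B cells the sign turned without HLU replicate 2 (0.22), and without HLU replicate 1 the value was -1.55. In monocytes the values were 18.1, 38.3, 41.2 and 6.56 CPM, with a log2 fold change of -0.36 that became 0.42 without HLU replicate 2. In neutrophil progenitors both HLU libraries lay below both Ctrl libraries, with means of 30.8 CPM in Ctrl and 14.9 CPM in HLU. The log2 fold change there was -1.29 ± 0.41 (adjusted p = 0.775), and -0.90 without HLU replicate 2.

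Sgk1 in mature neutrophils stood at 107, 91.6, 73.7 and 17.7 CPM (log2 fold change -1.06 ± 0.49, adjusted p = 0.431). The value was -0.50 without HLU replicate 2 and -1.96 without HLU replicate 1. Both HLU libraries lay below both Ctrl libraries, and the skeletal marker RNA was lower in HLU here too. At the Sgk1 ratio of skeletal cells, that RNA would carry 26.4, 27.0, 2.30 and 0.290 CPM of Sgk1. The remainders were 80.6, 64.6, 71.4 and 17.4 CPM, with HLU replicate 1 between the Ctrl libraries and HLU replicate 2 lowest. As for Klf9, they rest on skeletal cells as the reference and would differ with another. In B cells the values were 95.5, 102, 57.9 and 7.13 CPM, the last from 5 UMIs (log2 fold change -1.60 ± 0.65, adjusted p = 0.982). The value was -0.91 without HLU replicate 2 and -3.89 without HLU replicate 1. In monocytes the values were 62.5, 66.9, 81.0 and 13.8 CPM, and the log2 fold change of -0.55 became 0.24 without HLU replicate 2. Counted over all genes, HLU replicate 2 lay at least 4-fold below every other library for 1.27% of genes in neutrophil progenitors, 4.42% in immature neutrophils, 6.94% in mature neutrophils, 2.95% in monocytes, 2.55% in B cells and 1.17% in T cells. Among the members this held for Tsc22d3 and Sgk1 in mature neutrophils and for Sgk1 in monocytes and in B cells. The 4-fold rule for HLU replicate 2 was chosen after its values were seen and uses CPM without TMM factors. These hits are therefore a description only. In the same library Il1b, an inflammatory cytokine gene, stood at 2472 CPM in mature neutrophils against 587 to 770 CPM in the others, and mature neutrophil markers at 17060 against 25005 to 29304 CPM. The part of these differences in the low values was not tested.

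Fkbp5 was the induced target whose HLU values lay above Ctrl in most types. The values were 16.2, 15.9, 25.4 and 26.4 CPM in immature neutrophils, a log2 fold change of 0.66 ± 0.27 (adjusted p = 0.426). In monocytes they were 3.29, 6.64, 10.7 and 20.4 CPM, from 4, 13, 45 and 330 UMIs (1.55 ± 0.56, adjusted p = 0.882). The value was 0.95 without HLU replicate 2 and 1.88 without HLU replicate 1. HLU lay above Ctrl in neutrophil progenitors as well, at 8.85, 17.2, 19.1 and 30.5 CPM, and in B cells, where Fkbp5 was not tested. In mature neutrophils the groups overlapped, at 20.001, 22.1, 31.3 and 12.0 CPM. The monocytes of HLU replicate 2, highest in Fkbp5, held 3082 CPM of neutrophil progenitor markers against 689 to 873 in the others. They also held 4317 CPM of immature neutrophil markers against 743 to 1125. The part of neutrophil RNA in their Fkbp5 value was not tested.

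The HLU values of Hsd11b1 were above Ctrl in neutrophil progenitors (72.4, 69.3, 82.0 and 108 CPM), immature neutrophils and monocytes, and overlapped with Ctrl in mature neutrophils. The log2 fold changes in the tested types were 0.18 to 1.15, none past the threshold (adjusted p from 0.656 to 0.882). The highest, in monocytes, was 0.44 without HLU replicate 2 and 1.58 without HLU replicate 1. The monocytes of HLU replicate 2 were those with 9138 CPM of S100a8. Nr3c1 in progenitors stood at 24.1, 24.9, 38.2 and 38.1 CPM, with both HLU libraries above (0.40 ± 0.32, adjusted p = 0.781). Its log2 fold changes over the 6 types were -0.43 to 0.48. Those of Cebpd were -0.25 to 0.34, with overlapping groups in each type, and the lowest, in immature neutrophils, was 0.0859 without HLU replicate 2.

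**Figure D3:**
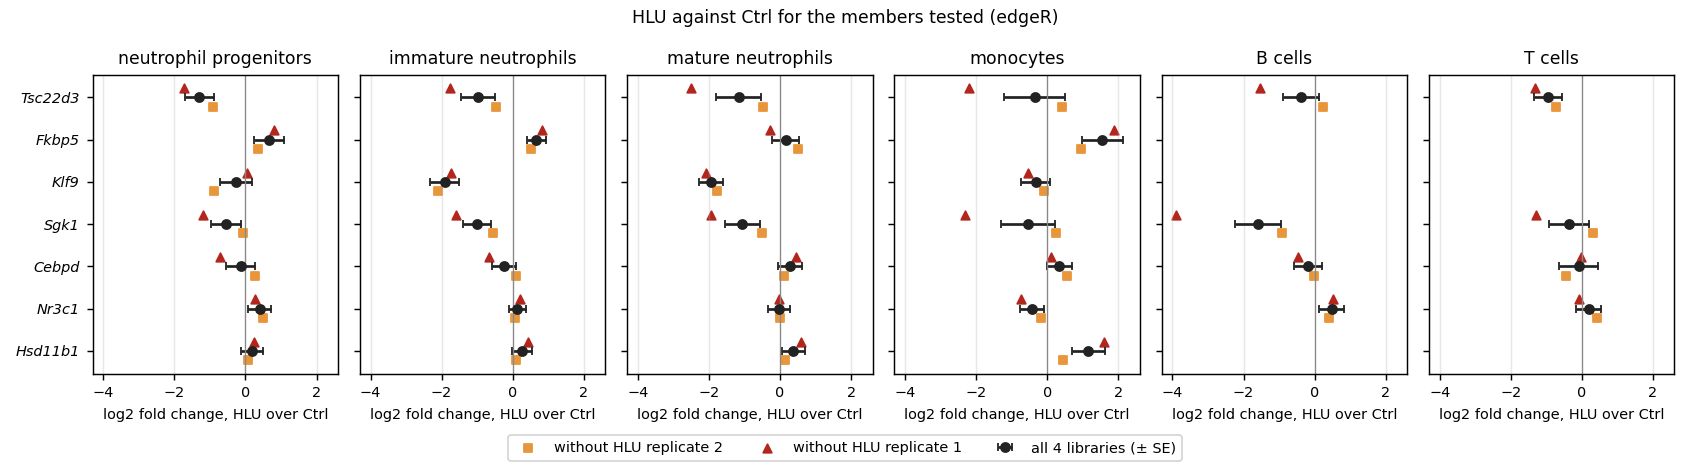
Log2 fold change of HLU over Ctrl for each member tested in the 6 types, with all 4 libraries (black circles, bars of 1 SE), without HLU replicate 2 (orange squares) and without HLU replicate 1 (red triangles). Klf9 in mature neutrophils, at -1.93, was the only value with all 4 libraries past the threshold, and Tsc22d3 in mature neutrophils ranged from -2.50 to -0.48 with the HLU library left out.

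These counts were read against all genes. The share of genes called was 0.406% in neutrophil progenitors, 2.03% in immature neutrophils, 3.07% in mature neutrophils, 0% in monocytes, 0.518% in B cells and 0.315% in T cells. In monocytes edgeR called 0 of 9793 genes, 338 had an unadjusted p under 0.05, and DESeq2 called 58. Nearly all called genes were lower in HLU, 309 of 310 in mature neutrophils. Among the 36 fits the groups did not overlap in 16, with HLU above in 9 and below in 7. By type these were 4, 5, 3, 2, 2 and 0 members of 7, 7, 7, 7, 4 and 4 tested. Over all genes the groups did not overlap for 42.6%, 44.7%, 41.2%, 36.5%, 37.6% and 33.9% in the same order, and the members' 16 of 36 was near that background. The directions of all genes were uneven as well. HLU lay above Ctrl for 2948, 2811, 1493, 2228, 2076 and 837 genes and below for 831, 2063, 2667, 1344, 756 and 668. Of the members 3, 3, 0, 2, 1 and 0 lay above and 1, 2, 3, 0, 1 and 0 below. Overlap was judged in CPM, without TMM factors. The median log2 fold change of the members was -0.33 to -0.02, against medians of all genes of -0.0036 to 0.062.

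The effect of suspension was also compared between monocytes and mature neutrophils. The difference for Klf9 was 1.75 ± 0.44 on the log2 scale (unadjusted p = 0.00564, adjusted p = 0.444 by edgeR). None of the 7 members tested passed. Of 11078 genes 0 were called (0%), 782 had an unadjusted p under 0.05, and edgeR with other size factors (RLE) also called 0. The median difference over all genes was 0.119 with TMM factors and 0.00599 with RLE.

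Other genes of the pathway were described from lists. Over all genes, edgeR gave an unadjusted p under 0.05 to 477 of 8867 in neutrophil progenitors and 1272 of 10913 in immature neutrophils. The counts were 1315 of 10102 in mature neutrophils and 338 of 9793 in monocytes. In B cells they were 320 of 7526 and in T cells 222 of 4440. These are the background for the unadjusted counts of the lists. The DESeq2 calls over all genes are given with the alternatives at the end. The receptor's chaperones and cofactors (10 genes, 54 fits over the 6 types) had 0 calls by edgeR, with 2 unadjusted p under 0.05 and 0 calls by DESeq2. Hsp90aa1, the chaperone that holds the free receptor, had 636, 234, 225 and 83.9 CPM in mature neutrophils (adjusted p = 0.377). In monocytes the co-chaperones Fkbp4 and Ptges3 had log2 fold changes of 0.87 and 0.67 (adjusted p = 0.882 for both), and in mature neutrophils the coactivator Ncoa1 had 0.42 (adjusted p = 0.606). The enzymes and exporters of steroids (6 genes, 9 fits) had 0 calls by edgeR, 3 unadjusted p under 0.05 and 0 calls by DESeq2. H6pd, which supplies the cofactor of the Hsd11b1 enzyme, had log2 fold changes of 0.28 in mature neutrophils and 0.55 in monocytes, and the exporter gene Abcb1b had 0.36 in monocytes (adjusted p = 0.812, 0.882 and 0.887).

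Other targets known to be induced (22 genes, 104 fits) had 0 calls up and 5 down by edgeR, with 23 unadjusted p under 0.05 and 15 calls by DESeq2. Over all genes edgeR called 0% (monocytes) to 3.07% (mature neutrophils) by type, nearly all lower in HLU. Errfi1, an inhibitor of the EGF receptor, fell in 4 types, with 108, 91.9, 11.2 and 4.49 CPM in mature neutrophils (log2 fold change -3.54 ± 0.38, adjusted p = 0.0123). Its log2 fold changes were -4.88 in progenitors, -4.73 in immature neutrophils and -3.41 in B cells (adjusted p = 0.0180, 0.0266 and 0.0170). Pdk4, a kinase that restrains glucose oxidation, fell in mature neutrophils from 10.8 and 10.8 to 1.10 and 0.16 CPM (-3.99 ± 0.63, adjusted p = 0.0326). Ddit4, an inhibitor of mTOR signalling, stood at 99.5, 110.3, 30.8 and 12.3 CPM in monocytes (adjusted p = 0.661), and Pdk4 there at 6.58, 4.59, 0.237 and 0.0619 CPM (adjusted p = 0.551). Median log2 fold changes of this list by type were -0.96 to -0.20.

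Targets known to be repressed (13 genes, 65 fits) also had 0 calls up and 5 down by edgeR, with 24 unadjusted p under 0.05 and 12 calls by DESeq2. The same shares over all genes apply. Nos2, the inducible nitric oxide synthase, fell in mature neutrophils (99.7, 185, 21.5 and 10.3 CPM, -3.02 ± 0.43, adjusted p = 0.0245) and in immature ones (46.7, 70.7, 9.47 and 3.78 CPM, adjusted p = 0.0266). Ccl2, a chemokine that draws monocytes, fell in mature neutrophils from 62.7 and 54.9 to 4.02 and 7.30 CPM (adjusted p = 0.0415). Mmp13, a collagenase, fell in B cells (40.9, 57.0, 3.14 and 2.85 CPM, adjusted p = 0.0118) and T cells (65.2, 83.6, 7.30 and 3.04 CPM, adjusted p = 0.0254). In monocytes Ptgs2 and Nos2 had log2 fold changes of -1.84 and -3.10 (adjusted p = 0.882 for both). Medians of this list were -1.09 to 0.32.

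The called genes were abundant in Ctrl skeletal cells, at 713 and 800 CPM for Errfi1, 494 and 860 for Nos2, 1025 and 1884 for Mmp13, 312 and 253 for Ccl2 and 124 and 108 for Pdk4. Members of both lists fell in the same sums as the skeletal marker RNA, and its part in these calls was not tested. Genes raised early by tissue dissociation (14 genes, 80 fits) had 1 call by edgeR, 23 unadjusted p under 0.05 and 6 calls by DESeq2. Their median log2 fold changes by type were all negative, from -1.15 to -0.52. The edgeR call was Atf3, a stress transcription factor, at 19.8, 27.9, 4.77 and 2.00 CPM in immature neutrophils (adjusted p = 0.0345). Egr1 and Fosb in mature neutrophils had log2 fold changes of -1.67 and -2.70 (adjusted p = 0.0537 and 0.0817), and Ier3 and Hspa1a in monocytes had -1.28 and -3.87 (adjusted p = 0.882 for both). The list summed to 6052, 4659, 3245 and 1844 CPM in mature neutrophils, lower in both HLU libraries.

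Across 35 sums of 12 cell types and libraries, the genes whose log2(CPM + 1) followed Tsc22d3 most closely, by Pearson's r across sums, were Birc2 (0.889), Sesn3 (0.876), Eif4a2 (0.873), Cbx7 (0.864) and Cyhr1 (0.855). For Klf9 these were Cpq (0.873), Pls3 (0.870), Tmbim1 (0.869), Sec24d (0.866) and Clmp (0.858). For Fkbp5 the values were lower, from 0.786 (Tmem154) through Kdm4c, Abhd10 and Limk2 to 0.763 (Riox1). The sums share libraries and are not independent, so these values are a description.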

How the data were processed

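Bone cells of 2 Ctrl and 2 HLU mice were analysed, 1 library each. The authors aligned reads to mm10 (reference 3.0.0) with Cell Ranger 6.0.0 and deposited raw UMI counts per gene and barcode; their notes also name Seurat 4.1.0. Cells were assigned to a type by summed markers per 10000 UMIs, with gates set after the counts were seen. Cells passing several gates (7.29% to 13.1%) were kept and went to the type with the highest sum relative to its gate. Only cells passing no gate went into no type. Doublets were removed only in the alternative with the study's further filters. UMIs were summed per library and type and tested with edgeR 4.0.16 (quasi-likelihood, TMM, filterByExpr) in R 4.3.3, with DESeq2 1.42.0 as an alternative, and Benjamini-Hochberg adjustment over all genes tested. Types were contrasted with library as a term. CPM are UMIs per 1000000 of the type's sum in a library, without TMM. P-values rest on 2 mice per group. Scripts were tested on simulated data.

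The members and lists were chosen with earlier results of these data known. Named were all members, every list gene with an adjusted p under 0.05, otherwise the 2 with the smallest p per list in mature neutrophils and monocytes, and the 5 genes most like Tsc22d3, Fkbp5 and Klf9. The 4-fold rule for HLU replicate 2 was chosen after its values were seen.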

Additional observations from a re-analysis of the deposited data

Results flagged for a closer look

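Barcodes under 1000 UMIs took no part in the comparisons. In them Fkbp5, Nr3c1 and Hsd11b1 were higher in both HLU libraries than in both Ctrl libraries. The share of all genes that separate in this way in these barcodes was not counted, so nothing particular to the members can be read from it. Fkbp5 stood at 10.4, 17.7, 40.4 and 25.6 CPM in the 2 Ctrl and then the 2 HLU libraries (means of 14.1 in Ctrl and 33.0 in HLU). Nr3c1 stood at 96.6, 73.3, 118 and 102 CPM (means of 84.9 and 110.3). Hsd11b1 stood at 46.1, 52.4, 165 and 66.5 CPM (means of 49.3 and 116). Among the lower members, Tsc22d3 stood at 109, 114, 64.97 and 0 CPM and Sgk1 at 261, 288, 89.5 and 71.6 CPM. The values of HLU replicate 2 rest on 267 barcodes and, for Fkbp5, Nr3c1 and Hsd11b1, on 5, 20 and 13 UMIs. The differences were not tested. These barcodes were not split by cell type, and their make-up differed between libraries. Dcn, a mesenchymal stromal marker, stood at 12254, 9672, 106 and 389 CPM, and S100a8 at 21427, 32718, 68083 and 16473 CPM. A change in make-up and a change in level cannot be told apart here.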

How the results depend on the processing

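For the 36 member values of HLU against Ctrl, 356 alternatives were run: 312 kept direction and side of the threshold, 18 changed sign, 22 passed the threshold anew (17 of them without HLU replicate 1) and 4 lost it, all Klf9 in mature neutrophils. The causes were not tested. With 1 library left out of HLU against Ctrl, 1 group holds a lone library. That library is assumed to vary like the other group, which limits what such passes and losses mean. In the order neutrophil progenitors, immature neutrophils, mature neutrophils, monocytes, B cells and T cells, edgeR called 36, 221, 310, 0, 39 and 14 genes. DESeq2 called 104, 425, 465, 58, 55 and 19, and edgeR with no filter on low counts 331, 1127, 1248, 258, 191 and 97. The study's further filters left 27, 16, 65, 5, 39 and 15, and stricter gates 29, 280, 215, 10, 19 and 21. Leaving out 1 library gave 33 to 2707, 96 to 4125, 122 to 3836, 0 to 3371, 16 to 1056 and 8 to 388. The type contrasts called 6150 to 7668, 5322 to 6966 and 5275 to 7322 genes with 1 library left out, and the difference between types in the HLU effect 0 to 2742 (2742 without HLU replicate 1, 272 without HLU replicate 2), alternatives chosen after seeing the data.

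Replicate numbers are only numbers in the labels, and the deviations of same-numbered samples correlated at -0.0953 to 0.187. With the replicate number as a block, 116, 422, 559, 8, 39 and 9 genes were called, and Klf9 passed in immature neutrophils too (-1.91, adjusted p = 0.0401, edgeR).

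Signs changed under stricter gates for Hsd11b1 in progenitors (-0.0404), Tsc22d3 in monocytes (0.0093) and Abcb1b in monocytes (-0.22), for Nr3c1 in mature neutrophils with DESeq2 (0.00775) and with no filter (0.0232), and for Fkbp5 between mature and immature neutrophils with no filter (-0.0676). With 1 library left out, log2 fold changes that crossed 0 ranged from -0.48 to 0.17 (Cebpd) and -1.55 to 0.22 (Tsc22d3) in B cells, -0.0786 to 0.43 (Nr3c1) and -1.28 to 0.37 (Sgk1) in T cells, -0.66 to 0.0859 (Cebpd) in immature neutrophils, and -0.28 to 0.50 (Fkbp5), -0.11 to 0.62 (H6pd) and -0.15 to 0.11 (Nr3c1) in mature neutrophils. In monocytes they ranged from -0.0363 to 1.12 (Ptges3), -2.31 to 0.24 (Sgk1) and -2.22 to 0.42 (Tsc22d3), in progenitors from -0.71 to 0.25 (Cebpd) and -0.90 to 0.0397 (Klf9), between mature and immature neutrophils from -0.0843 to 0.31 (Fkbp5), and for the difference between types in the HLU effect from -0.20 to 0.36 (Cebpd) and -0.23 to 0.56 (Sgk1). Members with few UMIs, such as Klf9 with 38 to 108 in mature neutrophils, limit the precision.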
